A study of Bos taurus with 6 samples.

Results

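Haptoglobin (HP, ENSBTAG00000006354), the chemokine GRO1 (ENSBTAG00000037558) and a beta-defensin (DEFB, ENSBTAG00000045649) were followed in mammary gland biopsies of Holstein heifers. These 3 genes, of 24579 in the count files, were found by their Ensembl identifiers in the table of differentially expressed genes of the study. The study made that table from a group of heifers that includes these animals, and a higher mean in 1 group is not independent support for their change. The biopsies came from 3 in utero heat stressed heifers (IUHT-H, heifers 9196, 9203 and 9204), whose dams had shade only in late gestation, and from 3 in utero cooled heifers (IUCL-H, heifers 9202, 9214 and 9223), whose dams had shade, fans and water soakers. All 6 heifers were born in 2014, were kept under the same conditions after birth, and were sampled on day 21 of the first lactation. A further IUCL-H of the study was not analysed here. Each heifer gave 1 library for RNA sequencing, and the deposited values are read counts per gene.

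Haptoglobin is an acute phase protein that binds free haemoglobin; it is made mainly in the liver, and synthesis in mammary tissue is also known. GRO1, also named CXCL1, is a secreted ligand that draws neutrophils through the receptor CXCR2. Beta-defensins are small cationic peptides of epithelia and leukocytes that damage microbial membranes, and cattle have a large family of them. The genes of all 3 kinds are known to respond to bacterial products and inflammatory cytokines, in the udder as in other epithelia.

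Library totals ran from 75754791 to 84969285 counts among IUHT-H, and from 91696849 to 101361294 among IUCL-H. In libraries of this depth, 3 counts are worth 0.0296 to 0.0396 CPM, that is, counts scaled to a fixed library total. The 10 most abundant genes accounted for 64.7% to 74.7% of a library. They took the smallest shares in heifers 9203 (64.7%) and 9196 (65.8%), the largest in heifer 9204 (74.7%), and 67.6%, 72.5% and 72.1% in IUCL-H 9202, 9214 and 9223. CPM values below were normalized with edgeR's TMM factors, which were 1.19 and 1.17 in IUHT-H 9196 and 9203 and 0.812 in IUHT-H 9204. In biopsies of whole tissue, a change in the number of cells of a type and a change in RNA per cell cannot be told apart.

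HP had 522, 160 and 35 counts in IUHT-H 9196, 9203 and 9204, and 46, 68 and 32 counts in IUCL-H 9202, 9214 and 9223. On the CPM scale these were 5.79, 1.70 and 0.507 CPM in IUHT-H, against 0.457, 0.753 and 0.365 CPM in IUCL-H. Heifers 9196 and 9203 were therefore above all IUCL-H, whereas heifer 9204 lay inside the range of the IUCL-H, below heifer 9214. Relative to the IUCL-H mean, the level was 11.0-fold in heifer 9196, 3.25-fold in heifer 9203 and 0.966-fold in heifer 9204. Heifer 9196 alone held 72.4% of the summed CPM of the 3 IUHT-H. Mean HP was 2.67 ± 2.77 CPM for the 3 IUHT-H, compared with 0.525 ± 0.203 CPM for the 3 IUCL-H (± SD).

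GRO1 had 179, 578 and 38 counts in IUHT-H 9196, 9203 and 9204, and 91, 58 and 28 counts in IUCL-H 9202, 9214 and 9223. The corresponding levels were 1.99, 6.16 and 0.551 CPM in IUHT-H, against 0.905, 0.642 and 0.319 CPM in IUCL-H. The same heifers, 9196 and 9203, were above all IUCL-H, but their order was the opposite of that for HP. Heifer 9203 stood at 9.90-fold and heifer 9196 at 3.19-fold the IUCL-H mean, and heifer 9204 was at 0.886-fold, between IUCL-H 9214 and 9223. Heifer 9203 held 70.8% of the summed CPM of the 3 IUHT-H. Mean GRO1 was 2.90 ± 2.91 CPM for the 3 IUHT-H, compared with 0.622 ± 0.293 CPM for the 3 IUCL-H (± SD).

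DEFB was measured at a far smaller depth, with 41, 22 and 6 counts in IUHT-H 9196, 9203 and 9204 and 8, 3 and 6 counts in IUCL-H 9202, 9214 and 9223. The levels were 0.455, 0.234 and 0.0870 CPM in IUHT-H, against 0.0795, 0.0332 and 0.0684 CPM in IUCL-H. All 3 IUHT-H were above all 3 IUCL-H on this scale, which held for 3.16% of the genes with at least 1 count. The lowest IUHT-H and the highest IUCL-H (heifers 9204 and 9202) were separated by less than their counting error, with 95% Poisson intervals of 0.0319 to 0.189 CPM and 0.0343 to 0.157 CPM. With scaling by library size alone, heifer 9204 fell below heifer 9202 (0.0706 against 0.0872 CPM), so the groups then overlapped. Relative to the IUCL-H mean, DEFB was 7.54-fold in heifer 9196, 3.88-fold in heifer 9203 and 1.44-fold in heifer 9204. Heifer 9196 held 58.6% of the summed CPM of the 3 IUHT-H. Mean DEFB was 0.259 ± 0.185 CPM for the 3 IUHT-H, compared with 0.0604 ± 0.0242 CPM for the 3 IUCL-H (± SD).

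**Figure D1:**
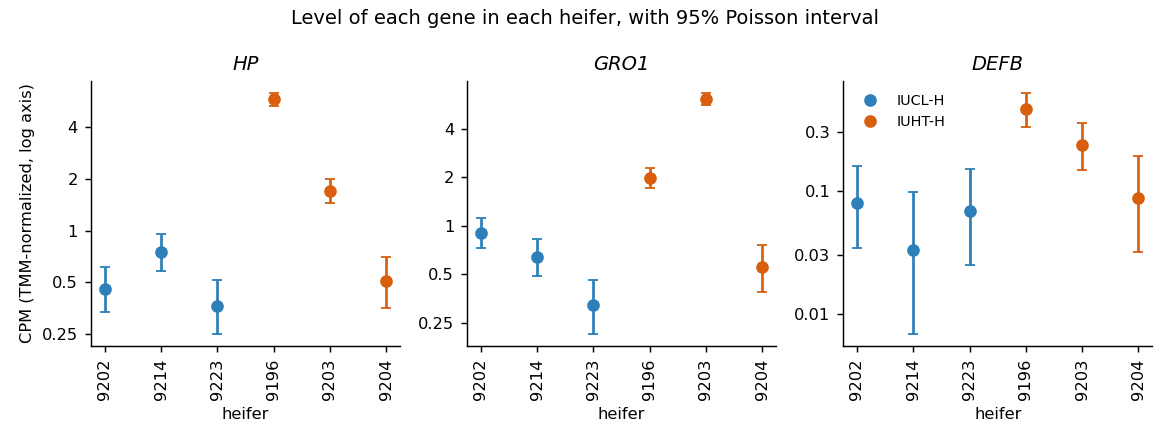
Level of HP, GRO1 and DEFB in each heifer (TMM-normalized CPM on a log axis that differs between panels), with IUCL-H in blue, IUHT-H in orange and bars for the 95% Poisson interval of the count. Heifers 9196 and 9203 stand above the IUCL-H in each panel, with heifer 9196 highest for HP (5.79 CPM) and DEFB (0.455 CPM) and heifer 9203 highest for GRO1 (6.16 CPM), while heifer 9204 lies among or next to the IUCL-H.

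The order of the heifers from high to low was 9196, 9203, 9214, 9204, 9202 and 9223 for HP, and 9203, 9196, 9202, 9214, 9204 and 9223 for GRO1. For DEFB it was 9196, 9203, 9204, 9202, 9223 and 9214. The same 2 heifers thus ranked first for all 3 genes. For HP and GRO1, the 95% Poisson intervals of heifers 9196 and 9203 overlapped neither each other nor those of any other heifer. For HP, the interval of heifer 9203 was 1.45 to 1.99 CPM, and the next heifer, 9214, had 0.585 to 0.955 CPM. For GRO1, the interval of heifer 9196 was 1.71 to 2.30 CPM, and the next heifer, 9202, had 0.728 to 1.11 CPM. Among the 4 lower heifers, neighbours in the order had overlapping intervals for each gene. For DEFB, the interval of heifer 9203 (0.147 to 0.355 CPM) overlapped those of heifers 9204, 9202 and 9223 as well as that of heifer 9196 (0.327 to 0.617 CPM). These intervals cover counting error only.

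Within IUHT-H, HP and GRO1 varied more than nearly all other genes. The highest IUHT-H exceeded the lowest 11.4-fold for HP and 11.2-fold for GRO1, against 2.06-fold and 2.83-fold within IUCL-H. On the log2(CPM + 0.5) scale, the SD over the 3 IUHT-H was 1.33 for HP and 1.33 for GRO1, whereas the median over the 14724 genes tested was 0.17. An SD at least as large occurred in 0.401% of these genes for HP and 0.394% for GRO1. The genes were not matched for their level, and the added 0.5 CPM lowers the SD of genes of low level. HP and GRO1 were also taken from the study's table of differing genes, so these shares are a description only. Within IUCL-H, the SD was 0.28 for HP and 0.39 for GRO1, and 24.2% and 10.5% of genes were at least as variable. DEFB lies below the added 0.5 CPM in every heifer, so its SD on this scale (0.35 in IUHT-H) understates its variation; its highest IUHT-H was 5.23-fold its lowest.

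To see whether the genes rose in proportion, their counts were compared inside each library, where the scaling between libraries cancels. HP made up 74.5% of the summed HP and GRO1 counts in heifer 9196 (95% exact binomial interval 71.1% to 77.7%) but 21.7% in heifer 9203 (18.8% to 24.8%). In heifer 9204 the share was 47.9% (36.1% to 60.0%), and in IUCL-H 9202, 9214 and 9223 it was 33.6% (25.7% to 42.1%), 54.0% (44.9% to 62.9%) and 53.3% (40.0% to 66.3%). The 2 heifers with the high levels therefore lay on opposite sides of the other 4, with intervals that did not overlap any of them. HP and GRO1 were raised in the same 2 heifers but not in a shared proportion.

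**Figure D2:**
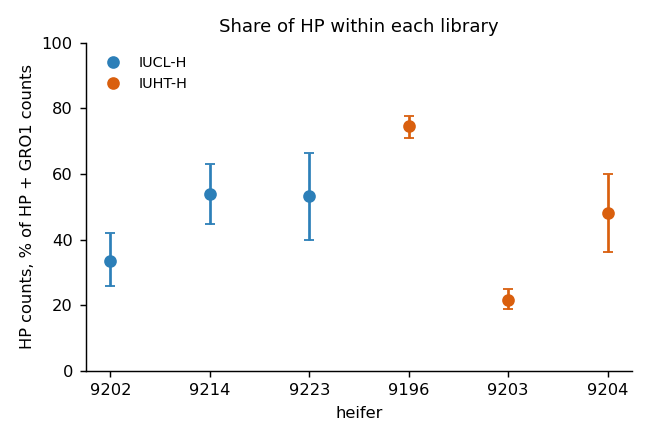
HP counts as a percent of the summed HP and GRO1 counts within each library, for IUCL-H (blue) and IUHT-H (orange), with bars for the 95% exact binomial interval. Heifer 9196 is highest at 74.5% and heifer 9203 lowest at 21.7%, and the other 4 heifers lie between 33.6% and 54.0%.

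Whether HP and DEFB rose in a shared proportion could not be decided, because DEFB had few counts. The ratio of HP to DEFB counts was 12.7 in heifer 9196 and 7.27 in heifer 9203, and it ran from 5.33 to 22.7 in the other 4. HP made up 92.7% of the summed HP and DEFB counts in heifer 9196 (90.25% to 94.7%) and 87.9% in heifer 9203 (82.3% to 92.3%), with overlapping intervals. The intervals of the other 4 heifers, between 68.7% and 99.1%, overlapped both, and were wide because of the low counts of DEFB. GRO1 made up 81.4% of the summed GRO1 and DEFB counts in heifer 9196 (75.6% to 86.3%) and 96.3% in heifer 9203 (94.5% to 97.7%), and these intervals were separate. In the other heifers the GRO1 share was 91.9% (84.7% to 96.4%) in 9202, 95.1% (86.3% to 99.0%) in 9214, 82.4% (65.5% to 93.2%) in 9223 and 86.4% (72.6% to 94.8%) in 9204. Heifer 9196 had the lowest share and heifer 9203 the highest, but the interval of heifer 9203 overlapped those of heifers 9202, 9214 and 9204.

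The comparison of IUHT-H with IUCL-H, which addresses the effect of the thermal environment of the dam on the gland of her daughter, was made with edgeR's quasi-likelihood test over all genes that passed its filter on low counts. The study's cut-off, an unadjusted P-value of at most 0.01, was reached by 0.428% of the 14724 genes, 0.285% with a higher and 0.143% with a lower level in IUHT-H. HP and GRO1 passed the filter, DEFB did not. For HP, the log2 fold change came to 2.35 (standard error 0.78, 95% interval 0.55 to 4.14), with a P-value of 0.0167 and an adjusted p-value of 0.999. For GRO1 it was 2.22 (standard error 0.78, 95% interval 0.41 to 4.03), with a P-value of 0.0222 and an adjusted p-value of 0.999. Neither was at the cut-off of 0.01 in this test, and both were below 0.05 before adjustment. DEFB was therefore taken from the same edgeR test on all 19443 genes with any count, of which 0.463% reached the cut-off. Its log2 fold change there was 2.08 (standard error 0.67, 95% interval 0.58 to 3.58), and edgeR gave a P-value of 0.0116 and an adjusted p-value of 0.989. HP reached the cut-off in that fit (P-value 0.00831) and GRO1 did not (0.0116).

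The call depended on the test. With edgeR's exact test, HP, GRO1 and DEFB had P-values of 0.00299, 0.00521 and 0.00565, and with its likelihood ratio test 0.00246, 0.00448 and 0.00409. All 3 were then at the cut-off, as were 0.733% and 0.761% of the genes that passed the filter, and 0.689% and 0.993% in the fits on all genes with any count that DEFB comes from. With DESeq2, HP had a P-value of 0.000456, GRO1 of 0.0217 and DEFB of 0.0107, with 0.843% of the filtered genes at the cut-off and 0.726% of all those with a count. Scaling by library size alone brought HP (P-value 0.00597, with 0.299% of genes at the cut-off) and DEFB (0.00821, with 0.504%) to the cut-off with the quasi-likelihood test of edgeR, but not GRO1 (0.0104). A robust quasi-likelihood fit also brought DEFB to it (0.00979, with 0.396%). In the robust fit on filtered genes, the P-values of HP (0.0262) and GRO1 (0.0347) were higher than without it. Exact permutation tests of the 3 against 3 values of log2(CPM + 0.5), which cannot go below 0.1, gave two-sided P-values of 0.2 for HP, 0.3 for GRO1 and 0.1 for DEFB.

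Leaving out each heifer in turn showed which animal each log2 fold change rested on. For HP, the omission of heifer 9196 lowered it most, from 2.35 to 1.08 (standard error 0.56, P-value 0.0950 in edgeR's quasi-likelihood test), so that 45.9% of the log2 fold change was left. For GRO1, it was the omission of heifer 9203 that lowered it most, from 2.22 to 1.03 (standard error 0.62, P-value 0.139), which left 46.3%. For DEFB, the omission of heifer 9196 lowered it from 2.08 to 1.41 (standard error 0.74, P-value 0.0845), which left 67.6%. As a ratio of mean CPM, the remaining IUHT-H were then 2.11-fold the IUCL-H for HP, 2.04-fold for GRO1 and 2.66-fold for DEFB, in place of 5.08-fold, 4.66-fold and 4.29-fold with all 3 IUHT-H.

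Without heifer 9204, whose levels were close to those of the IUCL-H, the log2 fold changes rose to 2.83 for HP (P-value 0.00111), 2.70 for GRO1 (0.00172) and 2.48 for DEFB (0.00246). All 3 genes then reached the cut-off. The share of all genes at the cut-off also rose, to 1.49% of the filtered genes and 1.48% of the genes with at least 1 count. None of the 3 passed adjustment for multiple tests, with adjusted p-values of 0.524, 0.531 and 0.436. Leaving out an IUCL-H moved the log2 fold changes less, to between 2.14 and 2.70 for HP, 1.91 and 2.59 for GRO1, and 1.80 and 2.33 for DEFB. The P-values of edgeR's quasi-likelihood test still rose, to between 0.0255 and 0.0580 for HP, 0.0307 and 0.0730 for GRO1, and 0.0206 and 0.0370 for DEFB. Each log2 fold change was above 0 in each of these fits.

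**Figure D3:**
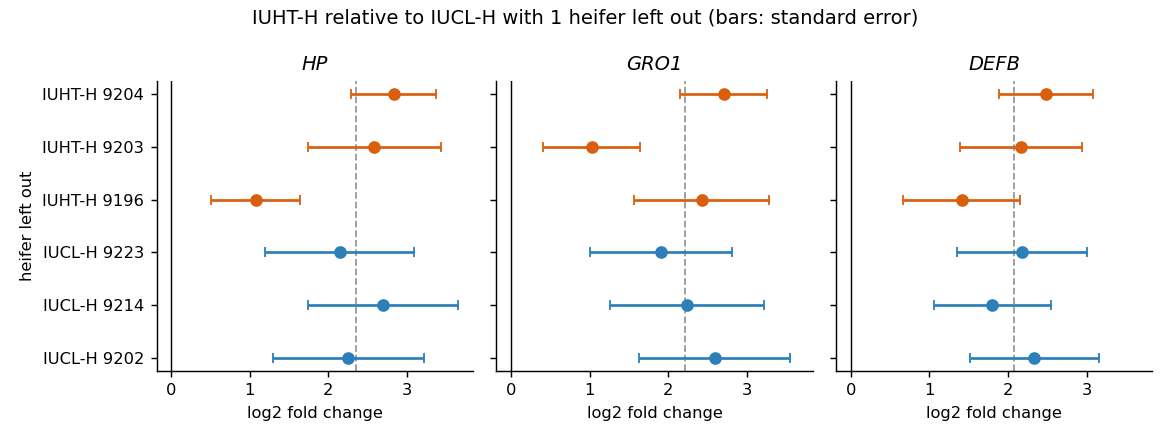
Log2 fold change of IUHT-H relative to IUCL-H for HP, GRO1 and DEFB after leaving out the heifer named at the left (blue for IUCL-H, orange for IUHT-H), with bars for the standard error and a dashed line at the value with all 6 heifers. HP falls to 1.08 without heifer 9196 and GRO1 to 1.03 without heifer 9203, DEFB falls to 1.41 without heifer 9196, and each gene is highest without heifer 9204.

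The arrangement with heifers 9196 and 9203 above all IUCL-H and heifer 9204 not above them, which HP and GRO1 share, was common in these libraries. It was found in 9.24% of the 14724 genes tested, against 3.44% with heifer 9196 and 2.72% with heifer 9203 as the one left behind. Of the 106 genes of the study's table that were tested, 11 had it, or 10.4%, close to the share over all genes. In 50 of these 106 genes (47.2%), all 3 IUHT-H, heifer 9204 included, were above all 3 IUCL-H, against 3.14% of the genes tested. The 106 were chosen by the study for differing and include genes with a lower level in IUHT-H, so both shares are a description only. The 2 heifers also had the smallest shares of counts in the 10 most abundant genes, given above, and heifer 9204 the largest. The part of this difference in HP, GRO1 and DEFB was not tested.

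Other genes of the acute phase, of neutrophil recruitment and of antimicrobial defence were taken from lists of 209 symbols. The count files hold identifiers only, and 11 of these symbols were paired with an identifier in the tables of the study, 10 of them in the table of differentially expressed genes. No marker of neutrophils, macrophages, hepatocytes, keratinocytes or secretory epithelium was among the 11, so the labelled tissue was not checked against its markers here. In edgeR's quasi-likelihood test, 9 of these symbols passed the filter, HP and GRO1 included, and 4 reached the cut-off with a higher level in IUHT-H and none with a lower one, against 0.285% and 0.143% of all genes tested. Their median log2 fold change was 1.44, and it was 0.00 over all genes tested. As 10 of the 11 were chosen by the study for differing in these heifers, these counts and medians are a description only.

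Besides HP, the acute phase list held LCN2, SERPING1 and APOA1. LCN2, which encodes lipocalin 2, a protein that withholds iron from bacteria, had 24.8, 37.8 and 21.4 CPM in IUHT-H 9196, 9203 and 9204 and 10.2, 6.10 and 14.8 CPM in IUCL-H 9202, 9214 and 9223. All IUHT-H were above all IUCL-H, heifer 9204 included, as was the case for 3.14% of the genes tested. With edgeR's quasi-likelihood test its fold change was 1.44 on the log2 scale (standard error 0.33, P-value 0.00251, adjusted p-value 0.999). Before adjustment, it reached the cut-off in each of the 16 alternative settings run for it. The lowest adjusted p-value among these was 0.0106, with DESeq2. SERPING1, the inhibitor of the first complement component, had 163.4, 134.1 and 94.6 CPM in IUHT-H, against 86.2, 53.5 and 44.7 CPM in IUCL-H, again without overlap (log2 fold change 1.09, P-value 0.00498 in edgeR's quasi-likelihood test). With scaling by library size, heifer 9204 (76.8 CPM) fell below IUCL-H 9202 (94.5 CPM), and omission of heifer 9196, 9203, 9214 or 9223 ended the call, with P-values of 0.0143 to 0.0205. APOA1, the main apolipoprotein of high density lipoprotein, had 9.37, 6.89 and 2.99 CPM in IUHT-H, against 3.63, 1.66 and 3.28 CPM in IUCL-H. Like HP, it was high in heifers 9196 and 9203 and within the IUCL-H range in heifer 9204. In 9.24% of the genes tested, heifers 9196 and 9203 but not 9204 were above all IUCL-H. The log2 fold change of APOA1 was 1.17 (P-value 0.0269 in edgeR's quasi-likelihood test, adjusted p-value 0.999). With 1 heifer left out, it ran from 0.79 without heifer 9196 (P-value 0.104) to 1.51 without heifer 9204 (0.00225).

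On the side of neutrophil recruitment, SELE encodes E-selectin, an adhesion molecule of activated endothelium. It had 10, 18 and 10 counts in IUHT-H 9196, 9203 and 9204 and 5, 6 and 3 counts in IUCL-H 9202, 9214 and 9223. These correspond to 0.111, 0.192 and 0.145 CPM in IUHT-H, against 0.0498, 0.0664 and 0.0342 CPM in IUCL-H. The CPM values of the groups did not overlap, as was the case for 3.14% of the genes tested. Heifer 9203 was highest, as for GRO1, but by a much smaller margin (log2 fold change 1.55, standard error 0.49, P-value 0.0135 in edgeR's quasi-likelihood test). The lowest IUHT-H and the highest IUCL-H, heifers 9196 and 9214, had overlapping Poisson intervals (0.0532 to 0.204 CPM and 0.0244 to 0.145 CPM). Those of heifers 9203 (0.114 to 0.303 CPM) and 9204 (0.0695 to 0.267 CPM) overlapped too. Neither the gap between these group extremes nor the first rank of heifer 9203 was therefore beyond counting error.

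The other listed antimicrobial peptide was LAP (ENSBTAG00000027225), lingual antimicrobial peptide, which is itself a beta-defensin. It is not in the table of differentially expressed genes and was named from the study's table of differentially methylated cytosines. LAP had 8, 25 and 0 counts in IUHT-H 9196, 9203 and 9204 and 2, 1 and 1 counts in IUCL-H 9202, 9214 and 9223. The 0 in heifer 9204 allows up to 3 counts, or 0.0353 CPM by library size, and its 95% Poisson interval reaches 0.0535 CPM on the TMM scale. Heifers 9196 and 9203 were again the 2 highest, here with heifer 9203 first as for GRO1, whereas DEFB was highest in heifer 9196. The LAP interval of heifer 9196 (0.0383 to 0.175 CPM) overlapped that of heifer 9203 (0.172 to 0.393 CPM). It also overlapped those of all IUCL-H, such as heifer 9202 (0.00241 to 0.0718 CPM). For DEFB, the intervals of heifers 9196 and 9203 overlapped as well, so this difference in order was not beyond counting error. On all genes with any count, edgeR's quasi-likelihood test gave it a log2 fold change of 2.97 (standard error 1.17) and a P-value of 0.0294.

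NFKBIA and SOD2 are known targets of the transcription factor NF-kB, and NFKBIA encodes its inhibitor. NFKBIA had 37.5, 37.5 and 29.3 CPM in IUHT-H 9196, 9203 and 9204 and 26.7, 15.0 and 18.1 CPM in IUCL-H 9202, 9214 and 9223. It was nearly equal in heifers 9196 and 9203, and its P-value was 0.00628 in edgeR's quasi-likelihood test (log2 fold change 0.80, standard error 0.22). Omission of heifer 9196, 9203, 9214 or 9223 ended that call, with P-values of 0.0187 to 0.0266, as did library size alone, with 0.0147. SOD2, the mitochondrial superoxide dismutase, had 29.6, 33.3 and 19.3 CPM in IUHT-H, against 22.2, 14.3 and 11.1 CPM in IUCL-H, with overlap at heifer 9204 (log2 fold change 0.79, P-value 0.0243). JCHAIN, the joining chain of secreted immunoglobulin and the one matched marker of plasma cells, had 142.4, 223.4 and 81.0 CPM in IUHT-H, against 37.9, 36.7 and 69.6 CPM in IUCL-H. It had the heifer order of GRO1 within IUHT-H (log2 fold change 1.63, P-value 0.00315 in edgeR's quasi-likelihood test), and the call was lost without IUCL-H 9202 or 9214 (0.0138 to 0.0141). No other lymphocyte marker could be looked up. The parts of plasma cells and of NF-kB in the differences above were not tested.

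**Figure D4:**
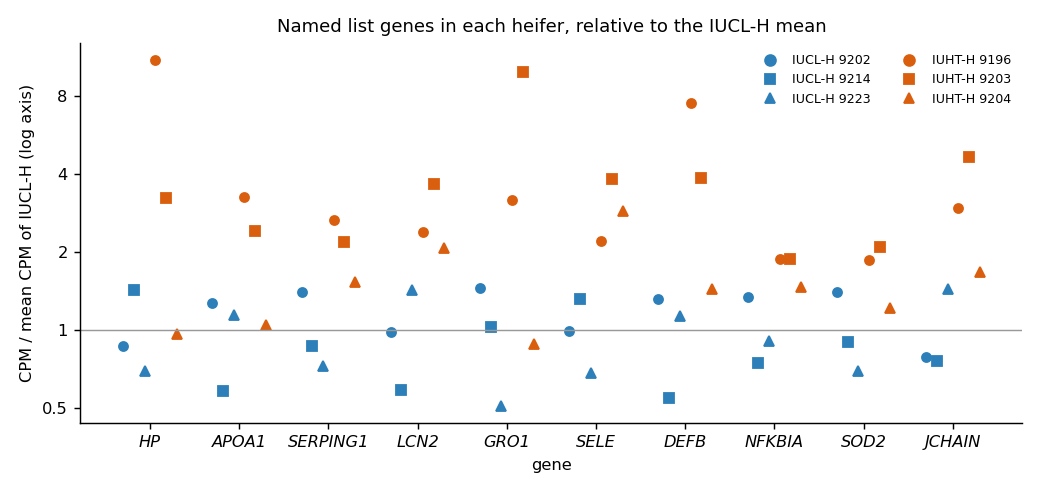
CPM of HP, GRO1, DEFB and 7 other genes of the lists in each heifer, divided by the mean CPM of the 3 IUCL-H (log axis), with blue for IUCL-H, orange for IUHT-H and 1 symbol per heifer. Heifer 9196 reaches 11.0 for HP, heifer 9203 reaches 9.90 for GRO1, and NFKBIA lies between 0.751 and 1.88 in all heifers. LAP is left out because it had 0 counts in heifer 9204.

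Counts of GRO1, DEFB and LAP carry an uncertainty of assignment. In the RefSeq annotation of the bovine assembly ARS-UCD2.0, the genes before GRO1 are PPBP, PF4, CXCL2 and CXCL3, which encode related chemokines, and the genes after DEFB include DEFB4A and EBD, which are beta-defensins too. Reads that match several members of such families could have been dropped or given to a neighbour when they were counted. HP has no such relative among the 4 genes on either side of it.

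The genes most like each member over the 6 heifers were found by the root mean square difference of centred log2(CPM + 0.5) values, among 11897 genes with a mean of at least 1 CPM. For HP, the nearest was the unnamed gene ENSBTAG00000014620, at 0.31 on the log2 scale, with 4.34, 2.18 and 0.319 CPM in IUHT-H 9196, 9203 and 9204 and 0.875, 0.753 and 0.365 CPM in IUCL-H 9202, 9214 and 9223. ABCC11, an ABC transporter, was second at 0.36, with 5.63 CPM in heifer 9196 and 0.948 CPM in heifer 9203 against 0.274 to 0.746 CPM in IUCL-H. For GRO1, the nearest was the unnamed gene ENSBTAG00000046158, at 0.26, with 16.7, 35.7 and 5.19 CPM in IUHT-H, against 8.70, 9.33 and 3.76 CPM in IUCL-H. The next 4 had no name in the tables used, and the first named gene, SFRP1, was at rank 19 (0.53). The 2 unnamed genes are not in the study's table and had P-values of 0.0498 and 0.0543 in edgeR's quasi-likelihood test.

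On this scale DEFB cannot be compared, because 0.5 exceeds each of its values, and an addition of 0.01 CPM, chosen with the data in view, was therefore also used. With it, an unnamed gene of the study's table came first for DEFB (0.28) and APOA1 second (0.37), with SFRP1 at rank 4 (0.47). HP and DEFB differed by 0.71, and 5 of the 11897 genes were closer to HP than DEFB was. HP and GRO1 differed by 1.05, with 112 genes closer to HP than GRO1. Seen from DEFB, 46 genes were closer to it than HP was and 1093 were closer than GRO1 was, and seen from GRO1, 75 genes were closer than DEFB. With 0.5 CPM added, 974 genes were closer to HP than GRO1 was. All 3 were chosen as higher in IUHT-H, which by itself makes their profiles alike.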

How the data were processed

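RNA sequencing of mammary biopsies from 3 IUHT-H and 3 IUCL-H was used, 1 library per heifer. The authors mapped reads with TopHat2 (version 2.0.13) to the bovine genome, given as bosTau7 in the methods and UMD3.1 in the submitters' processing notes, which also name FastQC and HTSeq, with no settings. They deposited whole-number counts per Ensembl gene, without normalization or filter. Strand use in counting is not given in the sources used here.

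From these counts, CPM were computed with TMM factors, and genes were filtered with filterByExpr in edgeR (version 4.0.16, R 4.3.3). The test was edgeR's quasi-likelihood test of IUHT-H against IUCL-H on all 6 heifers, without covariates and with Benjamini-Hochberg adjustment across the tested genes. Standard error means the log2 fold change divided by the square root of F. DEFB and LAP did not pass the filter and come from the same test on all genes with any count. Alternatives were the exact and likelihood ratio tests, DESeq2 (version 1.42.0), a robust fit, RLE or no size factors, 3 other filters, omission of the 10 most abundant genes and of each heifer. The fits were tested on simulated data. Each heifer is a separate animal. The precision depends on the counts, so 95% Poisson and exact binomial intervals are given, and these cover counting error only.

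Gene names came from the study's supplementary tables, since the reference table used here pairs no Ensembl identifiers. The named genes are HP, GRO1, DEFB, the matched genes of fixed lists and the nearest genes by profile. The members and lists were chosen with earlier results of these data known. Columns of fold changes and P-values in those tables were not used. Promoter motifs were not searched.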

Additional observations from a re-analysis of the deposited data

How the results depend on the processing

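The log2 fold changes of HP, GRO1 and DEFB were above 0 under each alternative, but their size and their side of the cut-off of 0.01 changed. HP came to the cut-off with edgeR's exact and likelihood ratio tests (2.34 in each), DESeq2 (2.34), library size only (2.62) and every gene with at least 1 count (2.34). GRO1 came to it with the exact and likelihood ratio tests (2.22 in each). DEFB, in fits on all genes with any count (added after seeing the data), came to it with the exact and likelihood ratio tests (2.08 in each), the robust fit (2.08) and library size only (2.29). Leaving out 1 heifer gave 1.08 to 2.83 for HP, 1.03 to 2.70 for GRO1 and 1.41 to 2.48 for DEFB (1.80 to 2.48 where it passed the filter). The smallest adjusted p-value under any alternative was 0.249 for HP, 0.531 for GRO1 and 0.436 for DEFB. The filter of 1 CPM in at least 3 heifers removed all 3 genes, and that of 10 counts in every heifer removed DEFB. With library size only, the median log2 fold change of all genes was 0.13, so 0.13 of the rise of HP to 2.62 is shared by the typical gene. The number of genes at P ≤ 0.01 was 63, and it was 108, 112 and 124 with the exact test, the likelihood ratio test and DESeq2, and 38 to 246 when 1 heifer was left out (225 without IUHT-H 9204, 246 without IUCL-H 9202, 38 without IUCL-H 9214). The share of all genes at the cut-off was 0.428%, and 0.733%, 0.761% and 0.843% with the exact test, the likelihood ratio test and DESeq2. It was 0.299% with library size only and 0.254% to 1.65% without 1 heifer. The list genes counted next are all in the study's table of differing genes, so their counts are a description only. Of the 4 acute phase genes, 2 were at the cut-off, 4 with the likelihood ratio test and DESeq2, and 1 to 4 without 1 heifer. Of GRO1 and SELE, 0 were, 2 with the exact and likelihood ratio tests, and 0 to 1 without 1 heifer. Of NFKBIA and SOD2, 1 was, 2 with the exact test, the likelihood ratio test and DESeq2, 0 with library size only, and 0 to 2 without 1 heifer. JCHAIN was at the cut-off except without IUCL-H 9202 or 9214, where 0 genes of its list were, and 1 without any other heifer. The causes of these changes were not tested. No paired analysis was possible because heifers of the groups share no number.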

Other observations

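With 0.01 CPM added in place of 0.5, the 5 genes nearest to GRO1 had no name in the tables used. The second nearest of them was abundant, with 2781, 5501 and 399.2 CPM in IUHT-H 9196, 9203 and 9204 and 1662, 1143 and 525.9 CPM in IUCL-H 9202, 9214 and 9223. It shared the order of GRO1 at the top, but heifer 9204 was below every IUCL-H. The prostaglandin D synthase gene PTGDS came next, at rank 6, with 354.5, 875.4 and 222.1 CPM in IUHT-H and 122.4, 121.9 and 43.4 CPM in IUCL-H.

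ZG16B, which encodes a secreted lectin-like protein, was at rank 49 for GRO1 on this scale. It had 13.8, 17.2 and 1.81 CPM in IUHT-H 9196, 9203 and 9204 and 3.05, 0.753 and 0.399 CPM in IUCL-H 9202, 9214 and 9223, so heifer 9204 was again inside the IUCL-H range (log2 fold change 2.96, standard error 0.92, P-value 0.0125 in edgeR's quasi-likelihood test).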
